A study of Mus musculus with 32 samples.

Results

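Complement and coagulation factors are plasma proteins that circulate as inactive precursors and switch each other on in cascades of proteases, complement to tag and puncture microbes and coagulation to lay down fibrin. Most of them are made by hepatocytes, and several complement proteins are also made locally by adipocytes, stromal cells and macrophages. Here the RNA of 38 such genes was described in mouse liver and epididymal white adipose tissue (eWAT), 20 of complement and 18 of coagulation. They were taken by symbol from a list of 39 names and make up 38 of the 47643 gene IDs counted. Klkb1, which encodes prekallikrein, was on the list and was not analysed here.

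Male C57BL/6 mice, 10 weeks old at the start, drank water with corticosterone (Cort) or with the ethanol vehicle alone (Veh) and ate a normal-protein diet (NPD, 20% of calories from protein) or a high-protein diet of equal calories with less starch (HPD, 60%) for 7 days. The study's methods give the substrain as C57BL/6J. RNA of each tissue was read with QuantSeq, which counts 1 fragment near the 3′ end of a transcript, so that levels can be set side by side between genes without division by length. Each pairing of treatment and diet, named Veh or Cort with its diet, had 4 libraries in each tissue, with total counts of 8933307 to 18057936. The labels do not say whether liver and eWAT came from the same mice or which mice shared a cage. The p-values rest on the spread between these samples, taken as independent. Levels are given in CPM (a gene's count as a share of the scaled library total), as mean ± SD, and differences as log2 fold changes with their standard error (SE). A gene was called where the Benjamini-Hochberg adjusted p of edgeR's quasi-likelihood test, taken over all genes of the tissue, was under 0.05.

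All 15 hepatocyte markers were counted in liver, where they summed to between 90683 and 272223 CPM in the libraries kept below. All 10 adipocyte markers were counted in eWAT, with sums of 45632.6 to 67312.8 CPM. In the liver library Veh HPD replicate 4, scaled with all 16 liver libraries, hepatocyte markers summed to 56730 CPM. The other libraries of its group, scaled without it, had 90683 to 98179.3 CPM. Mesothelial markers summed to 169 CPM against 36.7 to 65.1. The coagulation genes summed to 14070 CPM against 26175.2 to 29986.9, and C8a stood at 43.4 CPM against 261 to 358. These last values are of the genes described here and give no ground for leaving the library out. Veh HPD replicate 4 was left out of the liver values below, and counts with it are given beside them. This choice was made with earlier results of these data known and is not one stated by the study. Exocrine pancreas markers summed to 168.2 CPM in the library left out. Of the Veh HPD liver libraries kept, replicate 1 held 162 CPM of them and replicates 2 and 3 held 33.0 and 34.4 CPM. In eWAT, Cort HPD replicate 4 held 12362.1 CPM of 12 epididymis and testis markers, where the other 15 libraries held 1.34 to 16.3 CPM. In bulk tissue, fewer cells of a type and less RNA per cell cannot be told apart.

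The windows of 250 bases before to 50 bases after the transcription start (RefSeq, GRCm38.p6) are shown for the members that rose with cort on both diets in liver, C4bp and F9, and for the fibrinogen chains Fga, Fgb and Fgg, which lie next to each other on chromosome 3. Capitals mark matches, on either strand, to letters that a liver or hormone-responsive factor is known to bind: TGTTCT (an arm of the glucocorticoid receptor element), TTNNGCAA (C/EBP), TTCNNNGAA (STAT), GTTAAT (an arm of the HNF1 element) and CAAAGTCCA (HNF4).
C4bp, chr1:130661569-130661868, minus strand: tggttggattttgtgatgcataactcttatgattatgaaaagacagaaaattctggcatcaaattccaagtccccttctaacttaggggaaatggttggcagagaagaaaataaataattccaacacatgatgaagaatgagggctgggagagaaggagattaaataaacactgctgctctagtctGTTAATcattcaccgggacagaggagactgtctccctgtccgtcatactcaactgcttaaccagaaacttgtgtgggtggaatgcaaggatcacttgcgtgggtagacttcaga
F9, chrX:59999214-59999513, plus strand: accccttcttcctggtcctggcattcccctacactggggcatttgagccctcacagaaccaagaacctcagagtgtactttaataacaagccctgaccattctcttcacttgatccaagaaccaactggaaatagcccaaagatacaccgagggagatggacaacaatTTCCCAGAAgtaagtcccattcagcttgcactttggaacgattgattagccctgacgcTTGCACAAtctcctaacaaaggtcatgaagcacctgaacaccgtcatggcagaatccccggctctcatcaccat
Fga, chr3:83025903-83026202, plus strand: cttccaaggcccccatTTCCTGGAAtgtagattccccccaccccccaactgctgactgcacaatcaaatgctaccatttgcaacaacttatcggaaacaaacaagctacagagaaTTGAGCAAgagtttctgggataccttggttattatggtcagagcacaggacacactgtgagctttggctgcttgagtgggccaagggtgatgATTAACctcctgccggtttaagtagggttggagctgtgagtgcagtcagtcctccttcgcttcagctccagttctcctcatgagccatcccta
Fgb, chr3:83049814-83050113, minus strand: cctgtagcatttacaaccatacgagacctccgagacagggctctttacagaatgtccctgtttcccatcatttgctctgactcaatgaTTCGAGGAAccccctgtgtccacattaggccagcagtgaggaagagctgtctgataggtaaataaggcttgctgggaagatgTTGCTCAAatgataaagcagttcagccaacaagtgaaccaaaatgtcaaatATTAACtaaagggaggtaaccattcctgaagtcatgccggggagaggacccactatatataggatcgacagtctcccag
Fgg, chr3:83007474-83007773, plus strand: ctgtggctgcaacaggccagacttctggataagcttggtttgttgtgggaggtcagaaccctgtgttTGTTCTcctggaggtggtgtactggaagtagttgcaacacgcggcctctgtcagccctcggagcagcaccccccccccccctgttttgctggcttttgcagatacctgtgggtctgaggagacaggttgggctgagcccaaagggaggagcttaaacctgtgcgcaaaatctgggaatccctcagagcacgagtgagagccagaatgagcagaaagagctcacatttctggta
The windows of Fga and Fgb each held a STAT, a C/EBP and an HNF1 match, and in both the HNF1 letters ATTAAC lay closest to the start, with their first base at -43 in Fga and -29 in Fgb. The window of Fgg held none of these and a single receptor arm, TGTTCT, at -183. F9 held TTCCCAGAA at -82 and TTGCACAA at -24, and C4bp a lone GTTAAT at -64. Of the 38 members, 29 had a window in the RefSeq table. GTTAAT was found in 10 of the 29 (34.5%) and in 7.1% of all 32851 windows, TTNNGCAA in 9 (31.0%) and 10.8%, TTCNNNGAA in 7 (24.1%) and 8.3%, TGTTCT in 11 (37.9%) and 19.0%, and CAAAGTCCA in 0 and 0.475%. The shares of members count genes with a match in any of their windows, while the shares of all count single windows. A gene with several windows, such as C1s1, had more chances of a match, so these shares are unlike measures. A match is a run of letters in the window, and binding was not measured.

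In liver all 38 members passed the filter on low counts. The most abundant were the fibrinogen chains, led by Fgb at 15910 ± 2326 CPM (SD, n = 4) and Fgg at 4905 ± 1195 CPM (SD, n = 4) in Veh NPD. Of the complement genes C3, the protein on which all activation routes converge, was highest, at 1174 ± 137 CPM (SD, n = 4) in Veh NPD. Masp1, a protease of the lectin route, was the lowest member in liver, at 0.611 ± 0.456 CPM (SD, n = 4) in that group. In eWAT 10 of the 20 complement genes and 5 of the 18 coagulation genes passed. Serping1 (the C1 inhibitor) at 485 ± 63.6 CPM (SD, n = 4) and C3 at 424 ± 122 CPM (SD, n = 4) led there in Veh NPD. The coagulation gene with the most counts in eWAT was Pros1 (protein S, a cofactor that restrains clotting), at 45.1 ± 4.96 CPM (SD, n = 4), beside 40.2 ± 0.889 CPM (SD, n = 4) in liver, which was scaled separately. Mbl1 and Mbl2, the mannose-binding lectins, and F2, F9, F11, F13b and Serpind1 had 0 counts in every eWAT library, which allows at most 3 counts, or 0.166 to 0.306 CPM. The other members that did not pass in eWAT were C8a, C8b, C9, Hc, Cfi, Masp1, Masp2, C4bp, F12, Fga, Fgb, Fgg, Plg, Serpinf2, Proc and Kng1. C4bp was listed at 109 CPM in eWAT Cort HPD replicate 4, the library with epididymis transcripts, and at 0.465 CPM or less in the other 15 libraries.

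Complement genes called with cort in liver lay in both directions, and the share that rose was not far from that of all genes. On the NPD, 2 of 20 genes rose, where 6.84% of all genes tested did, and 6 fell, against 5.79% of all. On the HPD, 1 rose (background 4.75%) and 6 fell (background 5.14%). The median log2 fold change of the 20 genes was 0.11 on the NPD and -0.39 on the HPD, beside -0.01 and -0.0042 for all 12391 genes tested. With Veh HPD replicate 4 kept in, 4 genes were called on the NPD and 5 on the HPD.

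C4bp, which encodes the C4b-binding protein, a brake on the classical route, rose most. It stood at 379, 376, 371 and 480 CPM in Veh NPD and at 914, 916, 988 and 881 CPM in Cort NPD. On the HPD it stood at 249, 274 and 316 CPM under Veh and at 1058.1, 591, 620 and 485 CPM under Cort. Every Cort library was above every Veh library of its diet. The log2 fold change was 1.20 (SE 0.19, adjusted p = 0.00016) under the NPD and 1.30 (SE 0.21, adjusted p = 0.00035) under the HPD, a 2.3-fold and a 2.46-fold rise, and both were called whichever single library was left out. C3 rose on the NPD, from 1135.1, 1370.6, 1135.8 and 1052.6 CPM to 1586.2, 1531.7, 2174.7 and 2486.3 CPM (log2 fold change 0.73, SE 0.16, adjusted p = 0.0045). On the HPD C3 was at 1398.6, 1192.6 and 1221.6 CPM under Veh and at 1100.0, 1058.9, 1136.4 and 1126.6 CPM under Cort (log2 fold change -0.20, SE 0.17, adjusted p = 0.52). All 4 Cort HPD libraries of C3 were below the Veh HPD libraries.

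**Figure D1:**
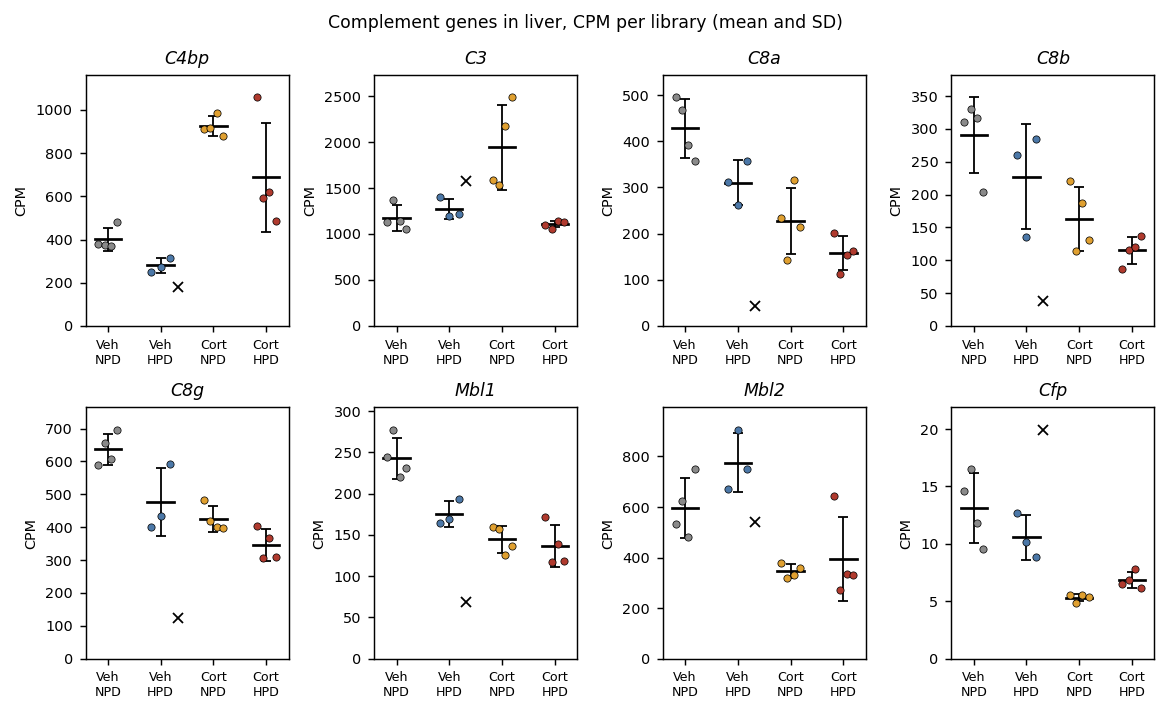
Levels of 8 complement genes in liver in CPM (vertical axes, from 0) for the NPD and HPD groups of Veh and Cort. Each point is a library, the long bar the mean and the whiskers the SD, and the cross is Veh HPD replicate 4, which is in neither and comes from a scaling of all 16 libraries. C4bp is higher in every Cort library than in the Veh libraries of its diet, and C8a is lower.

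The genes of the membrane attack complex, the pore that complement inserts into membranes, split. C8a and C8b, which encode chains of its C8 subunit and lie 11130 bases apart on chromosome 4, fell on both diets. C8a stood at 495, 468, 391 and 358 CPM in Veh NPD and at 233, 142, 316 and 215 CPM in Cort NPD. It stood at 312, 261 and 358 CPM in Veh HPD and at 201, 112, 154 and 162 CPM in Cort HPD, so the groups did not overlap on either diet. Its log2 fold changes were -0.92 (SE 0.21, adjusted p = 0.0048) and -0.98 (SE 0.22, adjusted p = 0.0062). C8b went from 310, 330, 316 and 204 CPM to 220, 114, 187 and 131 CPM on the NPD, and from 260, 136 and 285 CPM to 86.8, 116, 120 and 137 CPM on the HPD, with groups that overlapped at a single library on each diet. Its log2 fold changes were -0.83 (SE 0.24, adjusted p = 0.027) and -0.98 (SE 0.25, adjusted p = 0.019).

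C8g, the third C8 chain, fell on the NPD (log2 fold change -0.58, SE 0.15, adjusted p = 0.013) and was not called on the HPD (-0.46, SE 0.16, adjusted p = 0.08). The remaining genes of the complex, C6, C9 and Hc (which encodes C5 in the mouse), were called in no comparison in liver. C9 and C6 were uneven within Cort NPD. C9 stood at 947, 759, 956 and 866 CPM in Veh NPD, at 823, 564 and 939 CPM in Veh HPD and at 1047.7, 842, 875 and 798 CPM in Cort HPD. In Cort NPD C9 stood at 1628.6 and 1706.7 CPM in replicates 1 and 3 and at 723 and 637 CPM in replicates 2 and 4, and C6 at 289 and 241 CPM in replicates 1 and 3 and at 76.7 and 75.9 CPM in the others. The calls of C8a, C8b and C8g on the NPD were lost when Veh HPD replicate 4 was kept in (adjusted p = 0.23, 0.28 and 0.25), as were those of C8a and C8b on the HPD (adjusted p = 0.41 and 0.39). That of C8b was also lost in 5 of 15 fits that each left out a library on the NPD, with the highest adjusted p without Cort NPD replicate 2 (log2 fold change -0.69, adjusted p = 0.084), and in 3 of 15 on the HPD, with the highest without Veh HPD replicate 3 (-0.78, adjusted p = 0.098). On the NPD the C8b call was lost too when libraries were scaled by their totals alone (-0.87, adjusted p = 0.06).

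The lectin route begins with Mbl1 and Mbl2, which bind sugars on microbes. Mbl2 fell on both diets, from 598 ± 119 CPM (SD, n = 4) to 347 ± 27.4 CPM (SD, n = 4) on the NPD and from 776 ± 118 CPM (SD, n = 3) to 396 ± 167 CPM (SD, n = 4) on the HPD. Its log2 fold changes were -0.79 (SE 0.21, adjusted p = 0.016) and -0.97 (SE 0.23, adjusted p = 0.0078). In Cort HPD, replicate 1 stood at 642 CPM and the other 3 between 272 and 334 CPM. Mbl1 fell on the NPD, from 243 ± 24.7 to 145 ± 16.6 CPM (SD, n = 4 each; log2 fold change -0.75, SE 0.15, adjusted p = 0.0016). On the HPD it was at 175 ± 15.4 CPM (SD, n = 3) and 137 ± 25.5 CPM (SD, n = 4), with an adjusted p of 0.16. Masp1 and Masp2, the proteases they carry, were not called. The Mbl2 call on the NPD was lost without Cort NPD replicate 2 (log2 fold change -0.75, adjusted p = 0.051) or Veh NPD replicate 4 (-0.66, adjusted p = 0.063), that on the HPD without Veh HPD replicate 2 (-0.83, adjusted p = 0.051), and that of Mbl1 with Veh HPD replicate 4 kept in (-0.74, adjusted p = 0.053).

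Cfp, which encodes properdin, a stabiliser of the alternative route that is made mainly by myeloid cells, was low in liver. It stood at 14.6, 16.5, 11.8 and 9.55 CPM in Veh NPD and at 5.54, 4.83, 5.53 and 5.41 CPM in Cort NPD (log2 fold change -1.29, SE 0.19, adjusted p = 7.5e-05). On the HPD it stood at 12.7, 10.2 and 8.85 CPM under Veh and at 6.53, 6.86, 7.8 and 6.16 CPM under Cort (-0.63, SE 0.20, adjusted p = 0.047). Cort libraries were below Veh libraries on both diets. The call on the HPD was lost in 12 of 15 fits that each left out a library, with the highest adjusted p without Veh HPD replicate 1 (log2 fold change -0.48, adjusted p = 0.23). It was lost too when the replicate number was a block (-0.56, adjusted p = 0.11) or when genes with few counts were kept (-0.63, adjusted p = 0.089). Macrophage and Kupffer cell markers were also lower with cort on the NPD, while on the HPD their sums overlapped between Veh and Cort. Their sum over 10 genes was 261 to 358 CPM in Veh NPD and 97.7 to 193 CPM in Cort NPD, and 254 to 284 CPM in Veh HPD and 139 to 268 CPM in Cort HPD. Of the 10 markers, 5 fell on the NPD and 3 on the HPD, none was at 0 in any group, and their part in the result was not tested.

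C2, the protease that joins C4 in the classical convertase, and C1ra, a protease of the C1 complex, fell on the HPD. C2 went from 47.7 ± 14.9 CPM (SD, n = 3) to 24.1 ± 5.44 CPM (SD, n = 4) (log2 fold change -0.99, SE 0.21, adjusted p = 0.0043). On the NPD it was at 43.2 ± 8.45 and 31.8 ± 2.55 CPM (SD, n = 4 each), with an adjusted p of 0.15. C1ra stood at 114, 93.4 and 117 CPM in Veh HPD and at 71.4, 70.9, 86.5 and 74.9 CPM in Cort HPD, with no overlap (log2 fold change -0.51, SE 0.15, adjusted p = 0.032). In Veh NPD it stood at 114, 114, 124 and 86.6 CPM and in Cort NPD at 107, 95.9, 114 and 107 CPM. Its call on the HPD was lost without any of Cort HPD replicates 2 and 4 and Veh HPD replicates 1 and 3 (log2 fold change -0.48, -0.50, -0.48 and -0.45, adjusted p = 0.08, 0.065, 0.11 and 0.12). It was also lost with Veh HPD replicate 4 kept in (-0.32, adjusted p = 0.3), when the replicate number was a block (-0.47, adjusted p = 0.059) and when genes with few counts were kept (-0.51, adjusted p = 0.068).

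The most abundant complement genes that no comparison called in liver were C9, above, and Serping1, which stood at 673, 783, 1033.6 and 888 CPM in Veh NPD and at 1210.3, 1107.1, 1155.1 and 1028.9 CPM in Cort NPD. On the HPD Serping1 stood at 1052.6, 868 and 1328.7 CPM under Veh and at 825, 972, 1084.9 and 990 CPM under Cort. Cfb and Cfi, a protease that drives the alternative route and one that cuts C3b and C4b, had mean levels between 185 and 274 CPM in all groups and were not called. C1s1 and C4b were also not called. C1ra, C1s1, C4b and Kng1 each have a close copy in the genome (C1rb, C1s2, C4a and Kng2) with which reads can be shared, so their values are uncertain.

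Coagulation genes called with cort in liver were few and also lay in both directions. On the NPD 2 of 18 genes rose and 2 fell, where 6.84% of all genes rose and 5.79% fell. On the HPD 1 rose and 2 fell, against 4.75% and 5.14% of all. Such small counts were not set apart from the shares of all genes by any test. Over the 18 genes the log2 fold change had its median at 0.02 (NPD) and -0.07 (HPD). With Veh HPD replicate 4 kept in, 2 genes were called on each diet. Library totals without TMM factors moved the median of all genes by -0.24 on the HPD and by -0.02 on the NPD, and with them 6 coagulation genes were called on the HPD.

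F9, which encodes factor IX, the protein missing in haemophilia B, was the member of this group that rose on both diets. It stood at 377, 357, 452 and 592 CPM in Veh NPD and at 1208.8, 1016.0, 952 and 758 CPM in Cort NPD. On the HPD it stood at 308, 396 and 465 CPM under Veh and at 1193.2, 782, 872 and 698 CPM under Cort. No Cort library overlapped the Veh libraries. The log2 fold changes were 1.15 (SE 0.20, adjusted p = 0.0005) and 1.19 (SE 0.22, adjusted p = 0.0013), a 2.21-fold and a 2.28-fold rise, and both were called whichever single library was left out. F5, the cofactor of factor X, rose on the NPD, from 327, 331, 400 and 320 CPM to 398, 406, 539 and 645 CPM (log2 fold change 0.53, SE 0.16, adjusted p = 0.028), where the lowest Cort library lay within the Veh range. On the HPD F5 stood at 405, 391 and 362 CPM under Veh and at 255, 276, 279 and 300 CPM under Cort (log2 fold change -0.48, SE 0.17, adjusted p = 0.076). The call of F5 on the NPD was lost in 5 of 15 fits that each left out a library, with the highest adjusted p without Cort NPD replicate 4 (log2 fold change 0.36, adjusted p = 0.15), and with Veh HPD replicate 4 kept in (0.53, adjusted p = 0.082). It was lost too with library totals alone (0.51, adjusted p = 0.069).

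**Figure D2:**
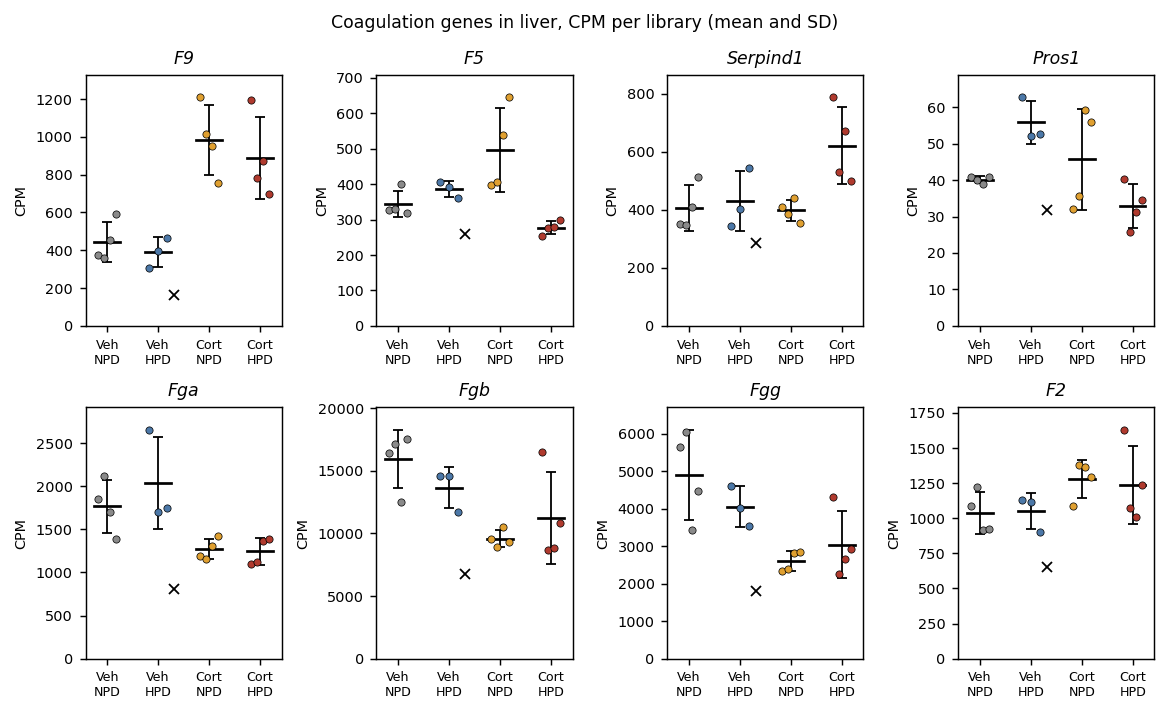
Levels of 8 coagulation genes in liver in CPM (vertical axes, from 0) by group. Points are libraries, long bars means, whiskers SD, and the cross is Veh HPD replicate 4, in neither. F9 is above the Veh libraries in every Cort library, F5 is high in Cort NPD and low in Cort HPD, and Fgb and Fgg are low in Cort NPD with 1 high library, replicate 1, in Cort HPD.

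The fibrinogen chains, which assemble into the precursor of fibrin, had negative log2 fold changes on both diets, and different chains were called. Fgb and Fgg fell on the NPD. Fgb stood at 16455.5, 17163.8, 12493.1 and 17547.1 CPM under Veh and at 9567.6, 8931.0, 10495.1 and 9315.8 CPM under Cort, and Fgg at 5662.1, 6063.1, 3429.3 and 4467.0 CPM and at 2346.9, 2389.4, 2827.4 and 2837.8 CPM. Neither pair of groups overlapped, with log2 fold changes of -0.73 (SE 0.19, adjusted p = 0.015) and -0.92 (SE 0.20, adjusted p = 0.0042). On the HPD Fgb was at 13630 ± 1637 CPM (SD, n = 3) and 11200 ± 3659 CPM (SD, n = 4) and was not called (-0.28, SE 0.21, adjusted p = 0.43), nor was Fgg (-0.42, SE 0.22, adjusted p = 0.24). The wide SD came from Cort HPD replicate 1, with 16489.8 CPM of Fgb where the other 3 had 8657.0 to 10834.7 CPM. Fga fell on the HPD, from 2035 ± 533 CPM (SD, n = 3) to 1244 ± 160 CPM (SD, n = 4; log2 fold change -0.71, SE 0.18, adjusted p = 0.017), and on the NPD went from 1766 ± 307 to 1270 ± 119 CPM (SD, n = 4 each; -0.48, SE 0.17, adjusted p = 0.074). The call of Fga was lost without Cort HPD replicate 2 (-0.66, adjusted p = 0.05) or Veh HPD replicate 1 (-0.48, adjusted p = 0.15) and with Veh HPD replicate 4 kept in (-0.46, adjusted p = 0.27), which also ended the call of Fgb (-0.73, adjusted p = 0.086).

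Of the inhibitors and anticoagulants, Pros1 fell on the HPD, from 55.8 ± 5.96 CPM (SD, n = 3) to 33.0 ± 6.08 CPM (SD, n = 4; log2 fold change -0.76, SE 0.19, adjusted p = 0.014). On the NPD it stood at 40.2 ± 0.889 and 45.7 ± 13.9 CPM (SD, n = 4 each; adjusted p = 0.56). Its call was lost without Cort HPD replicate 2 (-0.66, adjusted p = 0.052) or Veh HPD replicate 1 (-0.68, adjusted p = 0.075) and with Veh HPD replicate 4 kept in (-0.58, adjusted p = 0.093). Serpinc1 (antithrombin) had a mean of 1145 to 1201 CPM in the 4 groups, and Proc (protein C) and Serpinf2 (the plasmin inhibitor) were also not called with cort.

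The most abundant uncalled coagulation genes were Plg (plasminogen, the precursor of the enzyme that dissolves clots) and Kng1 (kininogen). Plg stood at 1364.1, 1363.0, 1716.1 and 1709.5 CPM in Veh NPD, at 1529.3, 1537.7 and 1793.6 CPM in Veh HPD, at 1732.0, 1517.5, 1921.2 and 1561.8 CPM in Cort NPD and at 1037.1, 1487.7, 1559.6 and 1571.5 CPM in Cort HPD. Kng1 stood at 1102.5, 1353.6, 1546.3 and 1844.1 CPM in Veh NPD and at 1062.0, 1059.2, 1067.4 and 1477.4 CPM in Cort NPD, and in the HPD groups between 1241.0 and 1962.7 CPM. These groups overlapped. The protease precursors F2 (prothrombin), F7, F10, F11 and F12 and the carrier chain F13b had log2 fold changes of -0.28 to 0.43 with cort, and none was called.

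**Figure D3:**
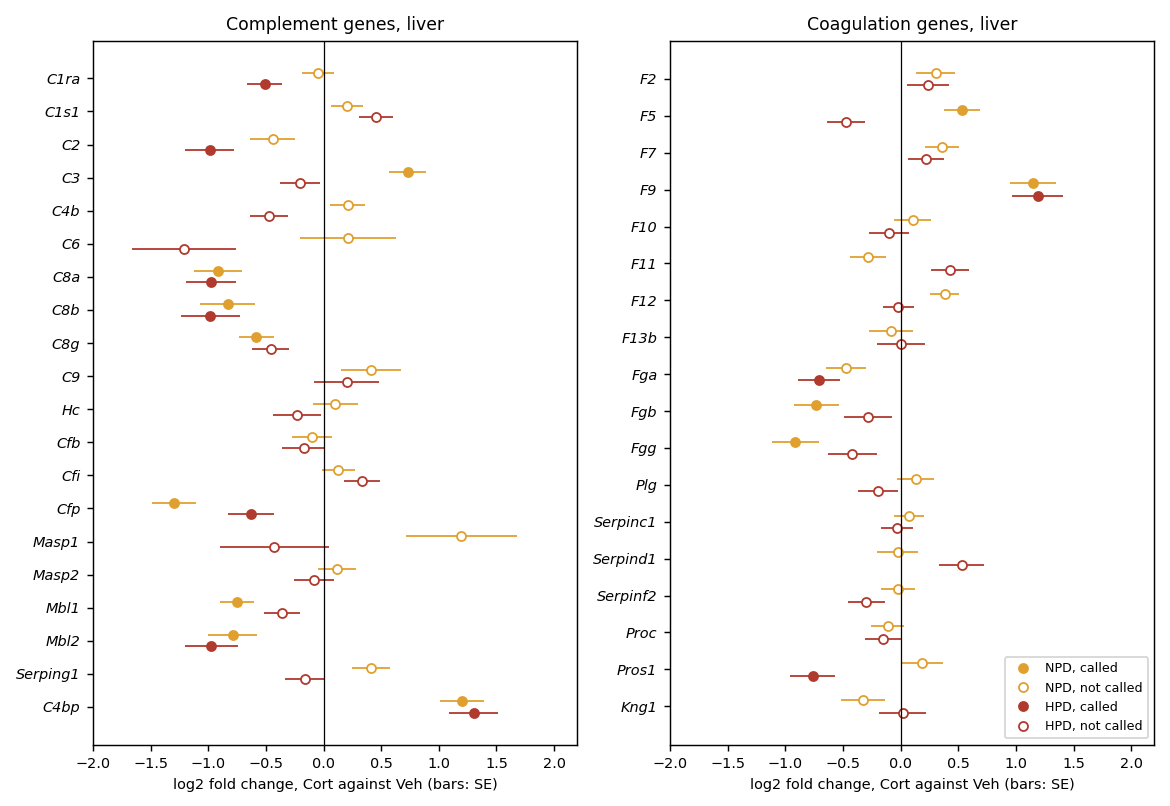
Log2 fold changes of Cort against Veh in liver (horizontal axes, bars SE) for the 20 complement and 18 coagulation genes on the NPD and the HPD. Filled circles passed the adjusted p of 0.05 and open circles did not. C4bp and F9 lie furthest to the right among filled circles on both diets, and C3 and F5 lie to the right of 0 on the NPD and to the left on the HPD.

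Whether the diet itself moved these genes was asked under each treatment. Under Veh, 0 of the 20 complement and 0 of the 18 coagulation genes were called in liver by edgeR, where 0.105% of all genes were higher and 0.0646% lower on the HPD. At an unadjusted p under 0.05 there were 6 and 2 genes, beside 1165 of all 12391 genes tested. DESeq2 called 0 and 0 members. Under Cort, 3.08% of all genes were higher and 2.8% lower on the HPD. Of complement, C3 and C1ra were lower (C3, log2 difference -0.81, SE 0.16, adjusted p = 0.0043; C1ra, -0.48, SE 0.14, adjusted p = 0.044). Every Cort HPD library of C3 was below every Cort NPD library, as for C1ra, by the values above. Of coagulation, F5 was lower (-0.84, SE 0.16, adjusted p = 0.0022) and Serpind1, which encodes heparin cofactor, a thrombin inhibitor, was higher (0.64, SE 0.18, adjusted p = 0.037). Serpind1 stood at 411, 387, 442 and 356 CPM in Cort NPD and at 788, 529, 672 and 499 CPM in Cort HPD, and at 350, 348, 411 and 515 CPM in Veh NPD and 345, 402 and 546 CPM in Veh HPD. The Cort groups did not overlap. C3 and F5 were called whichever single library was left out. The call of C1ra was lost in 11 of 15 such fits, with the highest adjusted p without Cort NPD replicate 3 (-0.44, adjusted p = 0.13), and that of Serpind1 in 6, with the highest without Cort NPD replicate 4 (0.60, adjusted p = 0.09). The estimate for Serpind1 was lowest without Cort HPD replicate 1 (0.51, adjusted p = 0.086). Its call was also lost with library totals alone (0.45, adjusted p = 0.084), and that of C1ra without the filter on low counts (-0.475, adjusted p = 0.089). With Veh HPD replicate 4 kept in, 1 complement and 1 coagulation gene were called. The calls lost were those of C1ra (-0.47, adjusted p = 0.19) and Serpind1 (0.65, adjusted p = 0.097).

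The interaction is the difference of the cort response between the diets. In the main edgeR fit it called 0 of the 38 members in liver, where 0.0565% of all genes were called in each direction. At an unadjusted p under 0.05 there were 7 complement and 5 coagulation genes, beside 1496 of all 12391 genes tested. DESeq2 called 1 member of each list. The smallest adjusted p-values were those of F5 (log2 difference -1.0, SE 0.23, adjusted p = 0.09) and C3 (-0.93, SE 0.24, adjusted p = 0.13), for which the response was lower on the HPD. The diets' different calls above are therefore not differences that passed a test in the main edgeR fit. Without the filter on low counts, edgeR called 1 coagulation gene for the interaction. DESeq2 called F5 and C3 there. In Cort HPD, libraries of both tissues also held more red blood cell transcripts. Their 8 markers summed to 5280.2 to 7635.2 CPM in liver Cort HPD and to no more than 3548.0 CPM in the other liver groups, and under Cort 5 of the 8 were higher and 1 lower on the HPD. Of 8 endothelial markers 3 were lower, with sums of 94.3 to 117 CPM in Cort HPD and 135 to 189 CPM in Cort NPD. Of 15 hepatocyte markers 5 were higher and 1 lower, with sums of 167540.5 to 272223 CPM and 115870.3 to 149865.9 CPM, and of 10 macrophage markers 2 were higher. The part of these markers in the diet results was not tested.

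In eWAT most of the 10 complement members that could be tested were called lower with cort. On the NPD 7 of the 10 genes tested fell and 0 rose, where 3.93% of all genes fell and 4.05% rose. On the HPD 7 fell and 0 rose, against 2.63% and 3.46% of all. The median log2 fold change of the 10 was -0.93 and -0.66, beside -0.02 and -0.0025 for all 15187 genes tested. The 6 genes called on both diets were C1ra, C1s1, C2, C4b, Cfb and Cfp, which encode proteases of C1, the parts C2 and C4b of the classical convertase, the protease of the alternative convertase, and properdin.

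C2 fell most. It stood at 213, 165, 122 and 91.9 CPM in Veh NPD and at 61.3, 45.6, 53.5 and 44.6 CPM in Cort NPD, and at 179, 124, 162 and 114 CPM in Veh HPD and 53.9, 53.7, 62.5 and 55.7 CPM in Cort HPD. The log2 fold changes were -1.53 (SE 0.20, adjusted p = 3.7e-05) and -1.36 (SE 0.20, adjusted p = 0.00018), a level 2.89-fold and 2.56-fold lower. C4b, which with C2 forms the classical convertase, stood at 181, 176, 157 and 172 CPM and at 85.3, 78.8, 95.4 and 68.0 CPM on the NPD, and at 237, 224, 332 and 125 CPM and 118, 112, 103 and 64.9 CPM on the HPD (log2 fold changes -1.07, SE 0.23, adjusted p = 0.006, and -1.20, SE 0.23, adjusted p = 0.0031). C1ra stood at 79.1, 50.1, 64.2 and 60.3 CPM and at 31.9, 27.4, 35.4 and 30.5 CPM on the NPD, and at 75.3, 74.6, 79.5 and 62.5 CPM and 38.6, 35.6, 40.0 and 47.4 CPM on the HPD (-1.02, SE 0.14, adjusted p = 2.8e-05, and -0.85, SE 0.14, adjusted p = 0.00032). For these 3 genes every Cort library was below every Veh library of its diet, and the calls held whichever library was left out.

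Cfp stood at 73.3, 57.8, 60.6 and 56.3 CPM in Veh NPD and at 35.6, 23.3, 30.3 and 36.9 CPM in Cort NPD, and at 54.8, 58.0, 71.2 and 45.6 CPM in Veh HPD and 38.3, 41.9, 36.5 and 30.1 CPM in Cort HPD. It fell by 0.98 (SE 0.16, adjusted p = 0.0002) and by 0.65 (SE 0.16, adjusted p = 0.012) on the log2 scale, without overlap. Cfb, which lies 85 bases from C2 on the same strand of chromosome 17, fell from 85.0 ± 11.9 to 39.2 ± 3.98 CPM on the NPD (SD, n = 4 each; log2 fold change -1.12, SE 0.14, adjusted p = 6.1e-06) and from 70.6 ± 14.5 to 49.7 ± 2.98 CPM on the HPD (SD, n = 4 each; -0.51, SE 0.14, adjusted p = 0.028). C1s1 fell from 138 ± 16.3 to 74.4 ± 2.83 CPM on the NPD (SD, n = 4 each; -0.89, SE 0.15, adjusted p = 0.00023) and from 130 ± 29.3 to 89.5 ± 13.3 CPM on the HPD (SD, n = 4 each; -0.54, SE 0.15, adjusted p = 0.023).

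Serping1 was called on the NPD alone (-0.44, SE 0.12, adjusted p = 0.018), with means of 485 and 358 CPM, and on the HPD was at 509 and 505 CPM (-0.01, SE 0.12, adjusted p = 0.97). C3 was called on the HPD alone (-0.68, SE 0.18, adjusted p = 0.023), and on the NPD was not called (log2 fold change -0.49, SE 0.18, adjusted p = 0.099). The interaction was called for neither. C6, a part of the membrane attack complex, stood at 86.5, 57.8, 71.5 and 41.6 CPM in Veh NPD, at 102, 54.6, 106 and 46.8 CPM in Cort NPD, at 76.7, 56.6, 46.3 and 16 CPM in Veh HPD and at 81.6, 91.6, 92.2 and 64.0 CPM in Cort HPD, and was not called. C8g, at 0.403 to 4.09 CPM over the 16 libraries, was not called either.

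**Figure D4:**
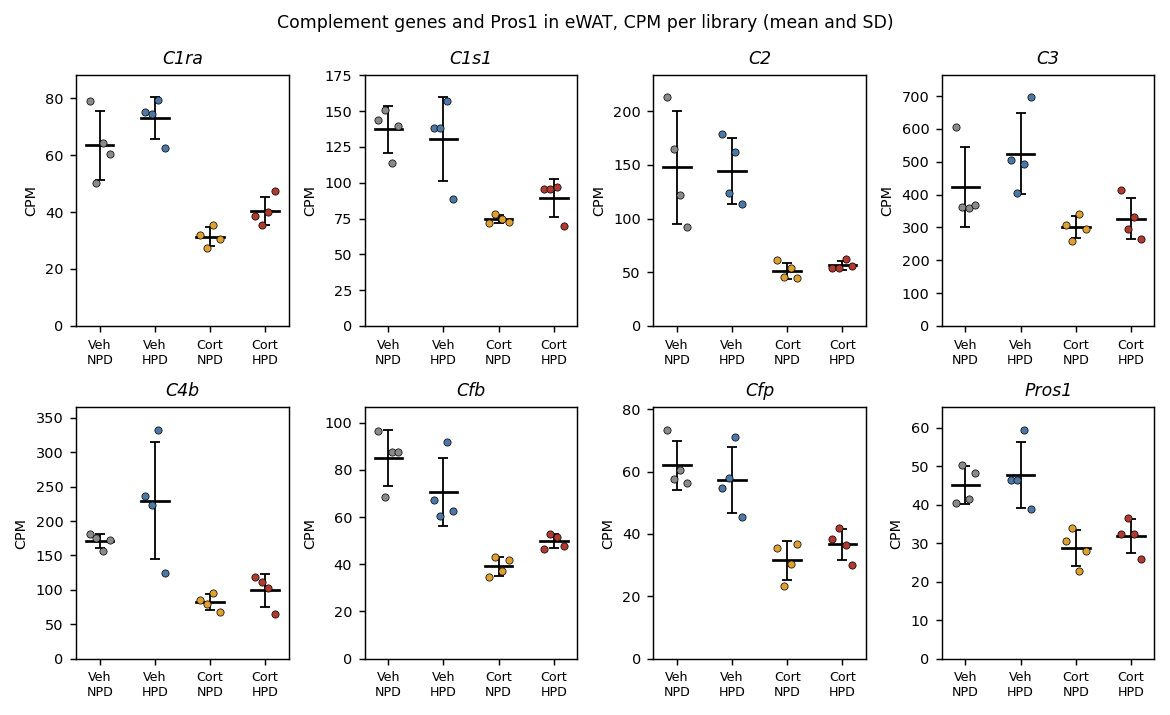
Levels of 7 complement genes and Pros1 in eWAT in CPM (vertical axes, from 0) by group, with a point for each of the 4 libraries, the mean (long bar) and the SD (whiskers). C2, C4b, C1ra and Cfp are lower in every Cort library than in the Veh libraries of the same diet.

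The call of C1s1 on the HPD was lost in 4 of 16 fits that each left out a library, with the highest adjusted p without Veh HPD replicate 3 (log2 fold change -0.44, adjusted p = 0.1), that of C3 in 5, with the highest without Veh HPD replicate 4 (-0.52, adjusted p = 0.078), that of Cfb in 5, with the highest without Veh HPD replicate 3 (-0.35, adjusted p = 0.16), and that of Cfp without Veh HPD replicate 3 (-0.53, adjusted p = 0.064). Without Cort HPD replicate 4, the library with epididymis transcripts, 4 complement genes were called on the HPD. On the NPD Serping1 was lost without Cort NPD replicate 1 (-0.41, adjusted p = 0.073), Cort NPD replicate 4 (-0.41, adjusted p = 0.064) or Veh NPD replicate 1 (-0.34, adjusted p = 0.094).

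Stromal and fibroblast markers moved with these genes. The 10 markers summed to 4576.7 to 5743.5 CPM in Veh NPD and 2718.4 to 2917.7 CPM in Cort NPD, and to 4355.4 to 5133.4 CPM in Veh HPD and 2972.2 to 3297.5 CPM in Cort HPD. Of the 10, 7 fell on the NPD and 6 on the HPD, and none was at 0 in any group. Macrophage markers summed to 696 to 1101 CPM over all groups, with 2 of the 9 tested lower on the NPD and 2 higher and 2 lower on the HPD, and Clec4f at 0 in every group. Of 10 adipocyte markers 3 were higher and 2 lower on the NPD, and 1 higher and 1 lower on the HPD. Of the 7 endothelial markers tested 3 were lower on the NPD and 1 on the HPD. Of 8 red blood cell markers 6 were higher on the HPD, with sums of 12696.7 to 25885 CPM in Cort HPD and 5256.8 to 9280.5 CPM in Veh HPD. Their part in the complement values was not tested.

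Of the 5 coagulation genes tested in eWAT, F5 and Pros1 fell on the NPD and Pros1 on the HPD, against the same backgrounds, and 0 rose. Pros1 stood at 40.4, 50.4, 41.4 and 48.2 CPM in Veh NPD and at 30.5, 34.0, 22.7 and 28.0 CPM in Cort NPD, and at 46.4, 46.4, 59.4 and 38.9 CPM in Veh HPD and 32.5, 36.5, 32.4 and 25.9 CPM in Cort HPD. Neither pair of groups overlapped (log2 fold changes -0.65, SE 0.16, adjusted p = 0.0088, and -0.59, SE 0.16, adjusted p = 0.022). F5 was low, at 9.76, 6.25, 8.47 and 10.5 CPM in Veh NPD and at 2.31, 2.04, 2.13 and 3.29 CPM in Cort NPD (-1.84, SE 0.48, adjusted p = 0.016). On the HPD F5 was at 8.32 ± 3.74 and 3.62 ± 2.49 CPM (SD, n = 4 each) and was not called. F7, F10 and Serpinc1 were at 2.75 CPM or less in every library and were not called. The Pros1 call on the HPD was lost without Cort HPD replicate 3 (-0.60, adjusted p = 0.05), Cort HPD replicate 4 (-0.50, adjusted p = 0.084) or Veh HPD replicate 3 (-0.47, adjusted p = 0.11), and that of F5 without any of Cort NPD replicates 1, 2 and 3 (-1.82, -1.77 and -1.78, adjusted p = 0.055, 0.055 and 0.057).

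The diet called 0 of these 15 genes in eWAT under Veh, where 0.0132% of all genes were higher and 0.0461% lower, and 0 under Cort (0.204% and 0.283%), and the interaction called 0 (0.00658% in each direction). At an unadjusted p under 0.05 there were 0 genes under Veh, 3 complement genes under Cort and 2 in the interaction. Of all 15187 genes tested there were 1219, 1490 and 784. DESeq2 called 1 complement gene under Cort and 0 in the other 2 comparisons. The smallest adjusted p was that of Serping1 under Cort, which was at 505 ± 45.9 CPM on the HPD and 358 ± 28.9 CPM on the NPD (SD, n = 4 each), with no overlap (log2 difference 0.49, SE 0.12, adjusted p = 0.054).

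The response to cort, averaged over the diets, was compared between liver and eWAT in a fit of both tissues, in which 3.88% of all genes were called in each direction. Only the 10 complement and 5 coagulation genes with enough counts in eWAT bear on it. The fit took all libraries as independent and had no term for the mouse, so any pairing of the tissues by mouse was ignored. For 6 of the 10 and 2 of the 5 the response was more negative in eWAT, and for 0 in liver. C1s1 had the smallest p, with a mean log2 fold change of 0.33 in liver and -0.71 in eWAT (difference 1.05, SE 0.15, adjusted p = 8.3e-06). C4b differed by 1.01 (SE 0.20, adjusted p = 0.00081) and C3 by 0.86 (SE 0.19, adjusted p = 0.0029). C2, C1ra and Cfb had negative means in both tissues and differed by 0.73, 0.66 and 0.68 (adjusted p = 0.029, 0.0021 and 0.0072), and with library totals in place of TMM factors C2 was no longer called (0.64, adjusted p = 0.078). Cfp had means of -0.96 in liver and -0.81 in eWAT (difference -0.15, SE 0.18, adjusted p = 0.74). F5 differed by 1.54 (SE 0.35, adjusted p = 0.0051) and F7 by 1.83 (SE 0.38, adjusted p = 0.0019), the latter from 39 counts or fewer in each eWAT library.

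**Figure D5:**
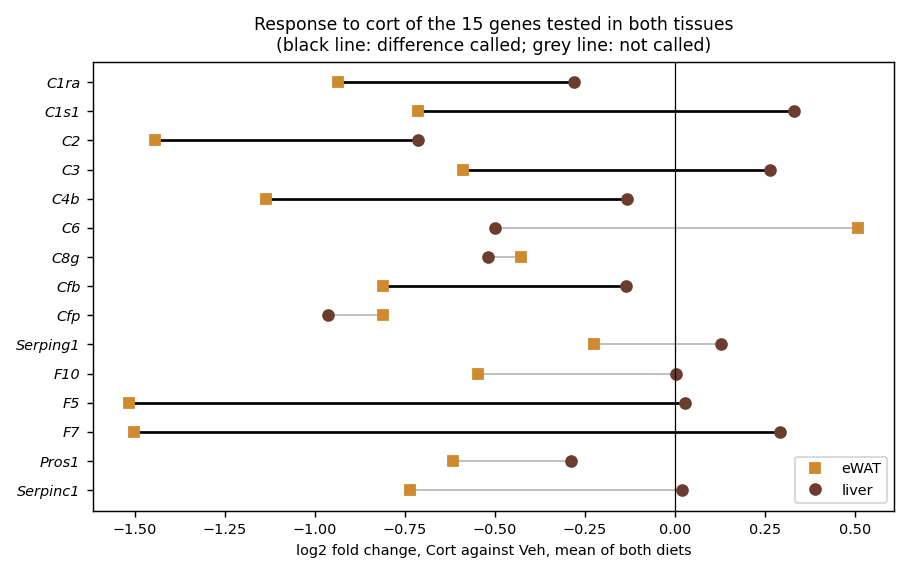
Mean log2 fold change of Cort against Veh over both diets (horizontal axis) in liver (circles) and eWAT (squares) for the 15 genes tested in both tissues. Black lines join genes whose responses differed between the tissues, and in all 8 the eWAT square lies to the left of the liver circle. Grey lines mark genes that were not called.

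Other genes of the 2 pathways, from lists of 32 complement and 30 coagulation genes, were read in the same fits. In liver 11 of 25 tested complement genes were called with cort on the NPD (1 rose, 10 fell), where 6.84% of all genes rose and 5.79% fell, and 6 of 25 on the HPD (1 rose, 5 fell), where 4.75% rose and 5.14% fell. C1rl, a relative of the C1 proteases, rose by 0.68 (SE 0.15, adjusted p = 0.0033) and by 0.71 (SE 0.16, adjusted p = 0.0063) on the log2 scale. The strongest falls on the NPD were those of Vsig4, a complement receptor of Kupffer cells (-1.26, adjusted p = 6.7e-05), and of C1qc and C1qb, chains of the recognition unit of the C1 complex (-1.13, adjusted p = 0.00012, and -1.02, adjusted p = 0.00014), which are made by macrophages and fell beside the macrophage markers above. On the HPD the smallest p-values were those of Colec11, a collectin of the lectin route (-0.86, adjusted p = 0.0014), and Vsig4 (-0.90, adjusted p = 0.0048). In eWAT 8 of 23 were called on the NPD (2 rose, 6 fell), where 4.05% of all genes rose and 3.93% fell, and 2 of 23 on the HPD (1 rose, 1 fell), where 3.46% rose and 2.63% fell. There Vsig4 rose on the NPD, from 1.02 ± 0.697 to 11.2 ± 4.22 CPM (SD, n = 4 each; log2 fold change 3.46, SE 0.57, adjusted p = 0.00042). Fcna, a ficolin of the lectin route, rose from 45.0 ± 9.82 to 187 ± 29.6 CPM (SD, n = 4 each; log2 fold change 2.06, SE 0.19, adjusted p = 2.4e-07) on the NPD and from 53.0 ± 11.7 to 177 ± 43.9 CPM (SD, n = 4 each; 1.74, SE 0.19, adjusted p = 3e-06) on the HPD. The responses of Vsig4 and Fcna differed between the tissues (liver minus eWAT -3.53 and -2.18, adjusted p = 3.3e-07 and 1.9e-10). Vtn (vitronectin, an inhibitor of the attack complex) and Itgam (a chain of a complement receptor) fell on the NPD in eWAT, by 1.27 (SE 0.26, adjusted p = 0.0023) and 0.92 (SE 0.24, adjusted p = 0.013) on the log2 scale. Cfd, the adipocyte protease adipsin that activates Cfb, fell in eWAT from 7721 ± 3623 to 2507 ± 933 CPM on the NPD (SD, n = 4 each; -1.62, SE 0.36, adjusted p = 0.013) and from 13080 ± 4556 to 2812 ± 241 CPM on the HPD (SD, n = 4 each; -2.22, SE 0.36, adjusted p = 0.0025).

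Among the other coagulation genes 14 of 23 tested were called with cort in liver on the NPD (11 rose, 3 fell) and 4 of 23 on the HPD, all higher, beside the same shares of all liver genes. Serpine2, a thrombin inhibitor, rose on both diets, from 8.25 ± 0.422 to 52.6 ± 33.7 CPM (SD, n = 4 each; log2 fold change 2.67, SE 0.37, adjusted p = 0.00027) on the NPD and from 9.51 ± 1.01 CPM (SD, n = 3) to 28.8 ± 4.27 CPM (SD, n = 4; 1.60, SE 0.40, adjusted p = 0.02) on the HPD. S100a10, part of the cell-surface receptor for plasminogen, rose by 0.98 (SE 0.17, adjusted p = 0.00043) and 1.31 (SE 0.19, adjusted p = 9.9e-05) on the log2 scale. Hrg, a glycoprotein that binds plasminogen and heparin, rose on the NPD (0.76, SE 0.14, adjusted p = 0.00075), and Serpina10, an inhibitor of factor X, fell (-0.58, SE 0.15, adjusted p = 0.014). Under Cort, 1 gene differed between the diets, Serpina5 (an inhibitor of protein C), at 13.6 ± 13.2 CPM on the NPD and 0.976 ± 0.413 CPM on the HPD (SD, n = 4 each; adjusted p = 0.014). In eWAT Serpine2 also rose, by 1.01 (SE 0.15, adjusted p = 3.6e-05) and 0.87 (SE 0.14, adjusted p = 0.00027), and F13a1, the catalytic chain of factor XIII, rose by 0.66 (SE 0.16, adjusted p = 0.0088) and 0.61 (SE 0.16, adjusted p = 0.02). Vwf, the von Willebrand factor of endothelial cells, fell on the HPD in eWAT (-0.84, SE 0.25, adjusted p = 0.04).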

How the data were processed

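QuantSeq 3′ RNA libraries of liver and eWAT were deposited by the authors as a table of raw counts per gene ID, whose processing notes name GRCm38. The aligner, counter and gene annotation are not given in the sources used here. Gene symbols came from the GRCm38 reference annotation. Total counts ran from 8933307 to 18057936 per library. Each tissue was fitted alone with edgeR 4.0.16 (R 4.3.3; TMM factors, filterByExpr with a minimum count of 10 and a minimum total of 15, robust quasi-likelihood test) on 4 group means, and both together for the tissue difference. Genes with a Benjamini-Hochberg adjusted p under 0.05 over all genes tested were called. Liver Veh HPD replicate 4 was left out of the main fits, which no source used here states for the study. The legend of the study's RNA-seq figure gives a range of group sizes that reaches below the number deposited, and names no library. The procedure was also run on simulated counts with a common spread for all genes and no outlying library, unlike these data. Its outcome is not given here. No pair of the 48 within groups was a duplicate (chi-square per gene 15.3 to 207). The members and lists were chosen with earlier results of these data known. Values in every library are given for members called on both diets (up to 4 by mean change), members called for diet, and up to 2 of the highest uncalled, and other pathway genes by smallest p. Replicate numbers were not used to pair libraries in the main fits. The median correlation of same-numbered deviations was 0.00711 in eWAT and -0.025 in liver, beside -0.00623 and -0.00342 for differently numbered ones. Alternatives were DESeq2 1.42.0, RLE factors, library totals, no filter, a replicate block, all 16 liver libraries and leaving out each library.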

Additional observations from a re-analysis of the deposited data

Results flagged for a closer look

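A library stood apart from the other 3 of its group, by a gap above Dixon's critical value, in 15 of 168 groups of 4 libraries with a mean of at least 1 CPM (8.93%). Chance gives this in about 1 in 20 groups.

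In liver Cort HPD, replicate 1 stood apart for 4 genes. Mbl2 was at 642 CPM there against 272 to 334 in the others, C6 at 45.8 against 81.5 to 87.3, C4b at 185 against 168 to 169 and Plg at 1037.1 against 1487.7 to 1571.5. Cort HPD replicate 1 also differed from its group over all genes. Its TMM factor was 0.7541 against 0.9113 to 0.9864 in the other Cort HPD libraries. Its chi-square per gene against them was 118 to 153, where they had 15.3 to 25.6 among themselves. Veh HPD replicate 4, which was left out, had 147 to 207 against its group. Cort HPD replicate 1 was kept in the main fits, so every liver Cort HPD mean includes it. In liver Cort HPD, Cfb was at 238 CPM in replicate 3 against 163 to 172. In liver Veh NPD, replicate 4 had 204 CPM of C8b against 310 to 330 and 480 CPM of C4bp against 371 to 379. Cfi was at 238 CPM in replicate 2 against 192 to 196, F5 at 400 CPM in replicate 3 against 320 to 331, and Serpinc1 at 1029.2 CPM in replicate 1 against 1174.3 to 1197.7. In liver Cort NPD, replicate 4 had 1477.4 CPM of Kng1 against 1059.2 to 1067.4.

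In eWAT Cort HPD, replicate 4, which held the epididymis transcripts, had 109 CPM of C4bp against 0 to 0.465 and 69.6 CPM of C1s1 against 95.6 to 97.1. Serping1 was at 436 CPM in replicate 2 of that group against 519 to 532, and C3 at 606.0 CPM in Veh NPD replicate 1 against 359 to 369.

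The response to cort differed between liver and eWAT, by the test of the difference itself, for 8 members. Liver minus eWAT was 0.66 on the log2 scale for C1ra, 1.05 for C1s1, 0.73 for C2, 0.86 for C3, 1.01 for C4b, 0.68 for Cfb, 1.54 for F5 and 1.83 for F7.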

How the results depend on the processing

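Counts of called members changed by over 1.5 times under these settings, and the cause was not tested. The shares of all genes called under these settings are not given here. DESeq2 called 1 coagulation and 1 complement gene for the interaction in liver, and 1 complement gene for diet under Cort in eWAT. With all 16 liver libraries, 2 coagulation and 4 complement genes were called with cort on the NPD, and 1 of each for diet under Cort. Library totals called 6 coagulation genes with cort on the HPD and 6 complement genes for diet under Cort in liver, and 1 complement gene for diet under Cort in eWAT. They moved the median of all genes in liver by -0.238 for cort on the HPD, -0.169 for diet under Cort and -0.22 for the interaction (log2). Without a filter, 1 coagulation gene was called for the interaction in liver, and 1 complement gene for diet under Cort in each tissue.

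Leaving out each library in turn gave, for cort on the HPD, 4 to 7 complement genes in liver (4 without Veh HPD replicate 1), 1 to 4 coagulation genes in liver (1 without Cort HPD replicate 2), 4 to 7 complement genes in eWAT (4 without Cort HPD replicate 4) and 0 to 1 coagulation genes in eWAT (0 without Cort HPD replicate 3). It gave 1 to 2 coagulation genes in eWAT for cort on the NPD (1 without Cort NPD replicate 1). For diet under Cort it gave 1 to 3 complement genes (1 without Cort HPD replicate 2) and 1 to 2 coagulation genes (1 without Cort HPD replicate 3) in liver, and 0 to 1 complement genes in eWAT (1 without Cort HPD replicate 2). No value changed sign while called.

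With the replicate block, 8 and 5 complement genes and 4 and 3 coagulation genes were called in liver with cort on the NPD and the HPD, and in eWAT 7 and 8 and 2 and 1. What libraries with the same replicate number share is not known. Of same-numbered pairs, 1 of 24 in eWAT and 6 of 21 in liver correlated over 0.1. Of differently numbered pairs, 5 of 72 in eWAT and 11 of 63 in liver did. A batch or cage shared by number cannot be told from these values. Genes at a few CPM, such as F7 in eWAT, are limited by depth.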
